A study of Homo sapiens with 9 samples.

Results

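FOS, FOSL1, FOSL2, FOSB, JUN, JUNB, JUND, EGR1, IER3 and DUSP1 are 10 genes of the AP-1 and immediate early response, picked by symbol from a table of 58676 genes. They were measured in HaCaT cells, an immortalised human keratinocyte line, by sequencing of total RNA. The cells had been kept for 14 h in medium with 10 µM PRL-295 (3 libraries), 250 nM CDDO-Me (3 libraries) or 1% DMSO, the control (3 libraries). CDDO-Me (bardoxolone methyl), a triterpenoid and an electrophile, activates NRF2, which switches on antioxidant genes. For PRL-295 the sources give a code name, and the study's title concerns NRF2 activators that are not electrophilic. DMSO is listed in the labels for control cultures but not for the compounds. Whether replicates were separate cultures is not stated, so the p-values measure the spread between these libraries. Because the model is 1 cell line at 1 time and 1 dose of each compound, later and earlier stages of the response were not sampled.

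AP-1 is a dimer of leucine zipper proteins. A JUN protein pairs with another JUN protein or with a FOS protein, and FOS proteins need a JUN partner to bind DNA. Growth factors and stress act through MAP kinases on serum response factor and its partners to switch on immediate early genes, which need no new protein synthesis and whose RNA is usually short-lived. In keratinocytes AP-1 takes part in migration, wound closure and the genes of terminal differentiation.

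The libraries held 23383800 to 32942156 counted reads, so that the floor of 3 counts corresponded to 0.0911 to 0.128 CPM (counts-per-million). Library CDDO-Me 1 had a count for 14543 genes, while the other 8 had one for 17821 to 23271. Across genes, the correlation of GC content with a library's deviation from the gene's mean log2 CPM over the 9 libraries was −0.477 to 0.316 in PRL-295, −0.651 to 0.00732 in CDDO-Me and 0.325 to 0.370 in DMSO. All 10 genes had a GC content, 52.6% to 69.7%, above the tested-gene median of 49.2%. For each of the 10 genes, the log2 fold changes against DMSO are therefore also given from a fit corrected for GC content and length. The correction raised the value of all 10 genes against DMSO in both compounds, so this shift is not particular to a gene. In every DMSO library the GC correlation was above that of every compound library, so GC trend and compound cannot be told apart. All 8 keratinocyte markers were expressed, with summed FPKM (reads per kilobase of gene, scaled by the library's counted reads) of 3163 to 3380 in PRL-295, 5194 to 5929 in CDDO-Me and 4065 to 4629 in DMSO. These sums did not overlap, and their part in the results was not tested. The highest value of any fibroblast, melanocyte, immune or endothelial marker was 1.33 FPKM, and COL3A1, LUM, DCN, TYR and PECAM1 were at 0 in all 9.

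FOSL1 was higher in PRL-295 cells than in both other groups, and JUN was higher in CDDO-Me cells than in DMSO cells; these were the calls among the 10 genes. A gene is called here at an adjusted p under 0.05 in edgeR's quasi-likelihood test over 16239 genes, and all 10 passed the filter on low counts. In PRL-295 against DMSO 1 of the 10 was called, where 0.684% of all tested genes were (0.462% higher and 0.222% lower). CDDO-Me against DMSO again had 1, against 9.22% of tested genes, which is close to that background. In PRL-295 against CDDO-Me it was 1, against 1.59% of tested genes (0.905% higher and 0.684% lower). The median log2 fold change of the 10 genes was −0.01, 0.10 and −0.01 in these 3 comparisons, beside −0.01, 0.01 and −0.01 over all tested genes. In the F test for any difference among the 3 groups FOSL1 (adjusted p = 0.00123) and JUN (adjusted p = 0.0410) were called, 2 of 10 against 5.68% of tested genes. The GC and length correction moved the split of calls over all tested genes to 636 higher and 410 lower in CDDO-Me against DMSO (755 and 742 as reported), and to 171 higher and 211 lower in PRL-295 against CDDO-Me (147 and 111 as reported). In RNA from whole cultures, fewer cells of a type and less RNA per cell cannot be told apart.

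**Figure D1:**
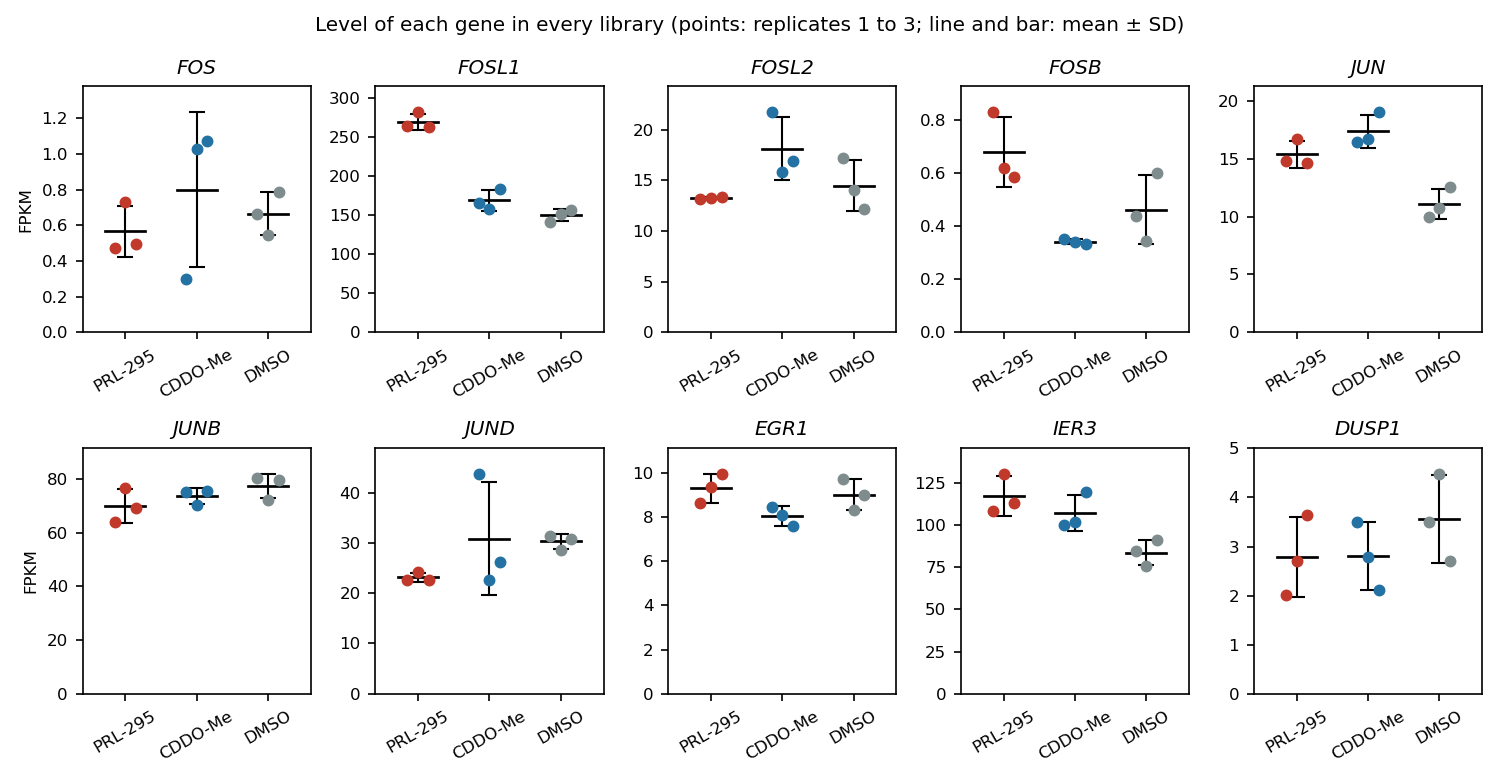
Level of each gene in FPKM (linear axis from 0) in the 3 libraries of PRL-295, CDDO-Me and DMSO, with points for replicates 1 to 3 from left to right and a line and bar for mean ± SD. FOSL1 sat at 263 to 282 FPKM in PRL-295, apart from the other 6 libraries, while FOS in CDDO-Me split into 0.30 and 1.03 to 1.07 FPKM.

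The FOS family members supply the partner that binds DNA only with a JUN protein. FOSL1, or FRA-1, lacks the strong activation domain of FOS and is linked to migration of epithelial cells. The gene (ENSG00000175592) lies at chr11:65892049-65900573 on the minus strand of hg38. Its level was 264, 282 and 263 FPKM in PRL-295 libraries 1 to 3, 166, 157 and 183 FPKM in CDDO-Me libraries and 141, 152 and 157 FPKM in DMSO libraries. All PRL-295 libraries lay above the other 6, and the CDDO-Me and DMSO groups met at 157 FPKM. In CPM it averaged 516 ± 28.3 in PRL-295, 316 ± 24.2 in CDDO-Me and 282 ± 17.5 in DMSO (SD, n = 3 each). FOSL1 was 1.83-fold higher in PRL-295 than in DMSO (log2 fold change 0.87, SE 0.101, adjusted p = 0.00231) and ranked 21 of all tested genes by p. This call held in all 20 alternative analyses, with log2 fold changes of 0.82 to 0.99, the highest with the GC and length correction.

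Set directly against CDDO-Me, PRL-295 cells held 1.63-fold more FOSL1 RNA (log2 fold change 0.71, SE 0.101, adjusted p = 0.00694). The doses differed, so this compares 10 µM of the one with 250 nM of the other. With only the 6 libraries compared in the fit the value was 0.70 and its adjusted p 0.0631. The GC and length correction brought the log2 fold change to 0.45 (adjusted p = 0.0302). CDDO-Me against DMSO gave 0.17 for FOSL1 (95% interval −0.05 to 0.39, adjusted p = 0.328), a miss that does not show equal levels. With the GC and length correction it was 0.53 (adjusted p = 0.00578).

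**Figure D2:**
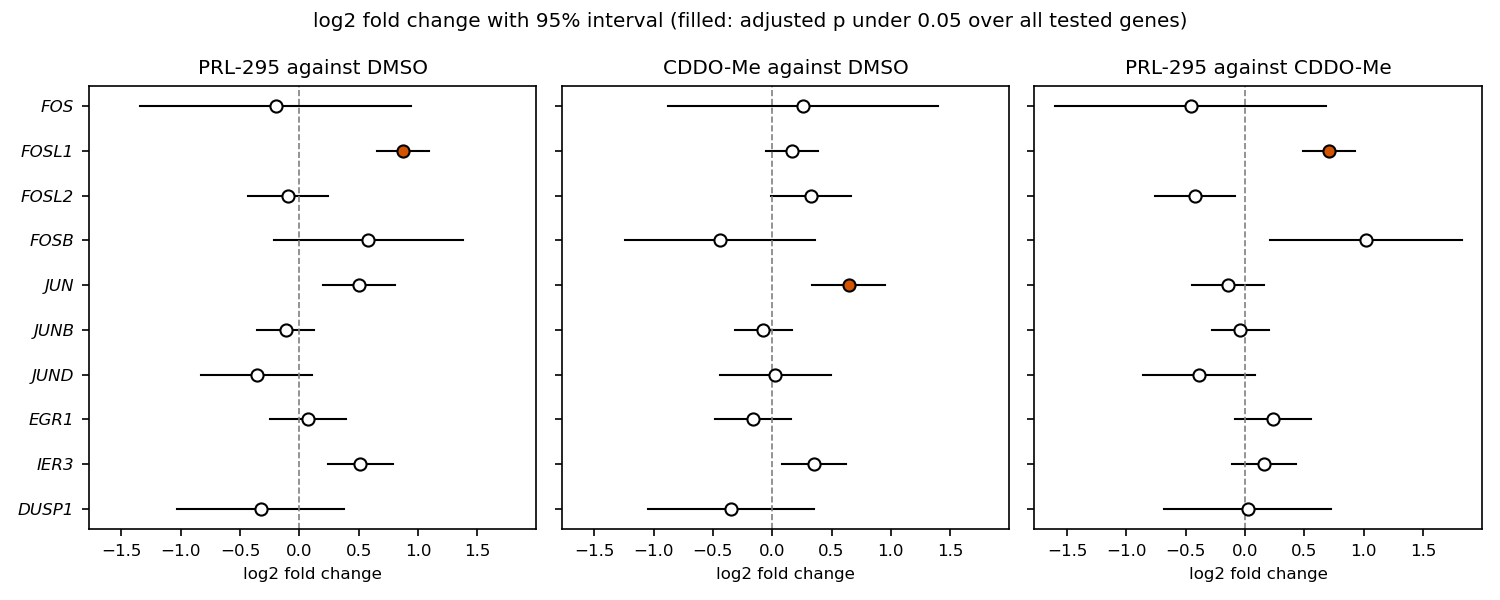
log2 fold change (x axis) of the 10 genes in PRL-295 against DMSO, CDDO-Me against DMSO and PRL-295 against CDDO-Me, with bars for the 95% interval and filled points for an adjusted p under 0.05 over all tested genes. FOSL1 at 0.87 and 0.71 and JUN at 0.64 are the filled points, and FOS has the widest intervals.

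FOSL2, or FRA-2, is the other FOS protein without a strong activation domain (ENSG00000075426, chr2:28392448-28417312, plus strand). It measured 13.2, 13.3 and 13.4 FPKM in PRL-295, 21.7, 15.8 and 16.9 FPKM in CDDO-Me and 17.2, 14.0 and 12.2 FPKM in DMSO. The PRL-295 libraries lay close together and below every CDDO-Me library, while the DMSO libraries spread across both. The log2 fold change was −0.42 in PRL-295 against CDDO-Me (95% interval −0.76 to −0.08), which was not called (adjusted p = 0.190). Without CDDO-Me 1, the highest library, it was −0.26 (adjusted p = 0.354). Against DMSO, PRL-295 gave −0.10 (adjusted p = 0.880) and CDDO-Me 0.32 (adjusted p = 0.209). With the GC and length correction these were 0.057 and 0.49 (adjusted p = 0.972 and 0.0565).

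FOS, the founding member and a classic serum response gene, was in the lower part of the expressed range (ENSG00000170345, chr14:75278774-75282230, plus strand). Its counts were 37, 64 and 44 in PRL-295, 31, 97 and 81 in CDDO-Me and 52, 58 and 81 in DMSO. In FPKM these were 0.469, 0.730 and 0.496 in PRL-295, 0.30, 1.03 and 1.07 in CDDO-Me and 0.663, 0.544 and 0.788 in DMSO. Library CDDO-Me 1 was the lowest of the 9 and the other CDDO-Me libraries were the highest, so that all groups overlapped. The log2 fold changes were −0.20 in PRL-295 against DMSO (95% interval −1.34 to 0.94) and 0.26 in CDDO-Me against DMSO (−0.88 to 1.40). Without CDDO-Me 1 the CDDO-Me value was 0.65 (adjusted p = 0.220). The GC and length correction gave −0.19 for PRL-295 and 0.44 for CDDO-Me, neither called.

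FOSB, another FOS protein with a strong activation domain, was below 1 FPKM in every library (ENSG00000125740, chr19:45467995-45475179, plus strand). Counts were 112, 93 and 89 in PRL-295, 62, 55 and 43 in CDDO-Me and 59, 63 and 106 in DMSO. In FPKM the gene averaged 0.678 ± 0.132 in PRL-295, 0.340 ± 0.00945 in CDDO-Me and 0.461 ± 0.130 in DMSO (SD, n = 3 each). Every PRL-295 library was above every CDDO-Me library, with DMSO 3 among the PRL-295 values and DMSO 2 among the CDDO-Me values. The log2 fold change of 1.02 in PRL-295 against CDDO-Me (95% interval 0.21 to 1.83) had an adjusted p of 0.185. Against DMSO it was 0.58 for PRL-295 (adjusted p = 0.557) and −0.44 for CDDO-Me (adjusted p = 0.489), or 0.77 and −0.19 with the GC and length correction, neither called.

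Summed per length, the FOS family amounted to 284 ± 10.7 FPKM in PRL-295, 188 ± 13.3 FPKM in CDDO-Me and 166 ± 5.63 FPKM in DMSO (SD, n = 3 each). FOSL1 made up 94.9 ± 0.158% of that sum in PRL-295, 89.7 ± 1.45% in CDDO-Me and 90.5 ± 1.82% in DMSO. FOSL2 gave 4.68 ± 0.179% in PRL-295, 9.66 ± 1.66% in CDDO-Me and 8.79 ± 1.85% in DMSO, and FOS and FOSB together stayed below FOSL2 in each library. In HaCaT cells at 14 h the FOS family RNA was thus nearly all FOSL1 in each of the 3 groups.

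**Figure D3:**
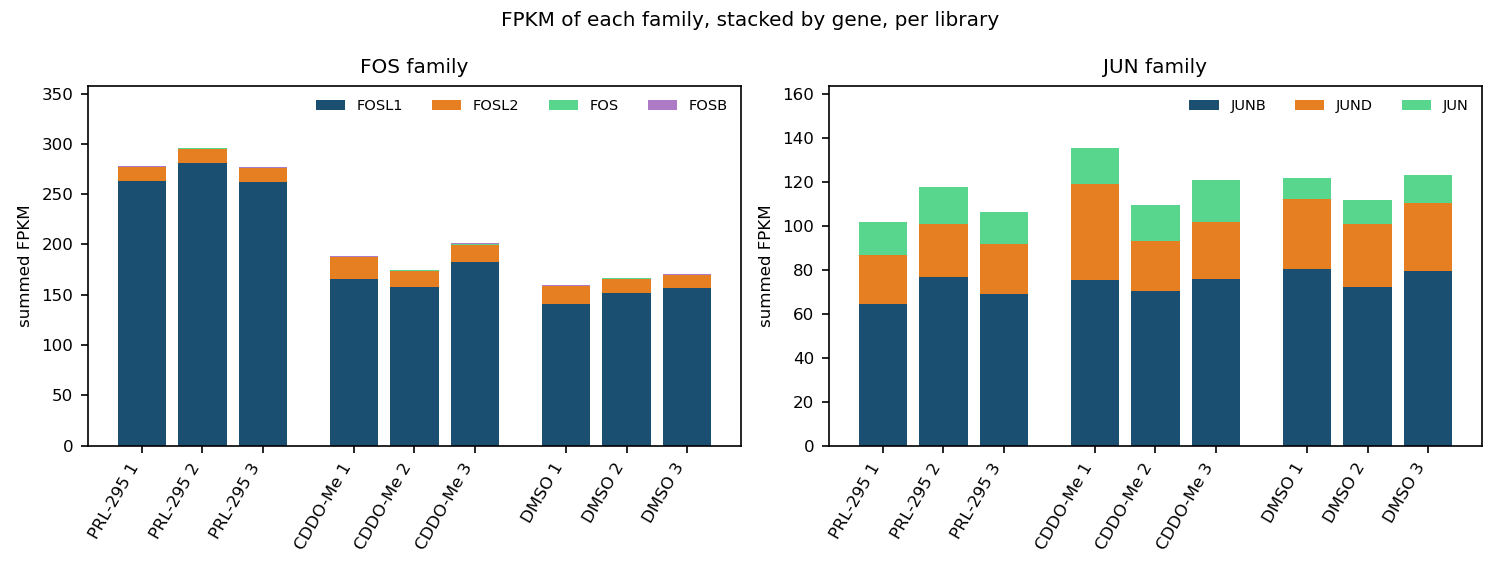
Summed FPKM (y axis, from 0) of the FOS family, left, and the JUN family, right, in each of the 9 libraries, stacked by gene. FOSL1 fills 89.7% to 94.9% of the FOS family on average, and JUNB 60.8% to 65.2% of the JUN family.

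The JUN proteins bind DNA with a FOS partner or among themselves. JUN (ENSG00000177606), a strong activator that also drives its own promoter, is a single-exon gene at chr1:58780788-58784327 on the minus strand. Its level was 14.8, 16.8 and 14.7 FPKM in PRL-295, 16.4, 16.7 and 19 FPKM in CDDO-Me and 9.99, 10.8 and 12.5 FPKM in DMSO. All 6 compound libraries exceeded the 3 DMSO libraries, and the compound groups overlapped each other. In CPM it averaged 55.4 ± 5.07 in PRL-295, 61.1 ± 4.88 in CDDO-Me and 39.1 ± 4.67 in DMSO (SD, n = 3 each).

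JUN was 1.56-fold higher in CDDO-Me than in DMSO (log2 fold change 0.64, SE 0.139, adjusted p = 0.0177). The size kept within 0.56 to 0.74 when single libraries were left out, but the call ended in 5 of 9 cases. Adjusted p was 0.0565 without PRL-295 3, 0.0555 without CDDO-Me 2, 0.0653 without CDDO-Me 3, 0.0914 without DMSO 1 and 0.0869 without DMSO 2. The GC and length correction gave a larger value, 0.93 (adjusted p = 0.000685). PRL-295 against DMSO gave 0.50 for JUN (95% interval 0.20 to 0.81), which missed the threshold (adjusted p = 0.148). DESeq2 called it (adjusted p = 0.0337), as did the fit with GC and length correction (0.61, adjusted p = 0.0316). That the compounds differ in JUN was not shown, since PRL-295 against CDDO-Me gave −0.14 (95% interval −0.45 to 0.16, adjusted p = 0.657).

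JUN autoregulation is known to use an AP-1-like element in its promoter, so that element is shown beside the related sites found in 2 other members. Among the 10 genes, 8 had an entry in the RefSeq promoter table (GRCh38.p14), and FOSL1 and IER3 had none. In the 250 bases before the start, on both strands, TGACATCA was found in JUN, at −67 to −60, and in 2.45% of 27305 promoters. The full palindrome TGACGTCA was found in JUND, at −200 to −193, and DUSP1, at −125 to −118, and in 1.77% of promoters. The shorter TGACTCA, which overlaps neither, was in 0 of these 8 windows and 4.16% of promoters. The sites are printed with their flanks on the minus strand, from chr1:58784096-58784125 (JUN), chr19:18281804-18281833 (JUND) and chr5:172771302-172771331 (DUSP1). Capitals mark only TGACATCA or TGACGTCA. The TGACNNNGC match of DUSP1, at −115 to −107 and read on the opposite strand, is left in lower case. The JUN window lies inside the gene as the deposited annotation draws it.
JUN: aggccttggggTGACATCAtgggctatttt
JUND: ggccgcccccaTGACGTCAacccacaaggc
DUSP1: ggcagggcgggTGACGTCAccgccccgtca
A match describes the letters only, since binding was not measured.

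JUNB, a weaker activator that can hold JUN in check, is a single-exon gene at chr19:12791496-12793315 on the plus strand (ENSG00000171223). It gave 64.2, 76.7 and 69.1 FPKM in PRL-295, 75.3, 70.2 and 75.6 FPKM in CDDO-Me and 80.6, 72.3 and 79.6 FPKM in DMSO. All groups overlapped. The log2 fold changes were −0.12 in PRL-295 against DMSO (95% interval −0.36 to 0.12) and −0.07 in CDDO-Me against DMSO (−0.31 to 0.17). With the GC and length correction these became 0.07 and 0.34, and neither was called. JUNB shares 259 exon bases with HOOK2 on the opposite strand, and whether counting used strand is not given in the sources used here.

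JUND, the JUN protein made in most resting cells, is at chr19:18279760-18281622 on the minus strand (ENSG00000130522). Its level was 22.5, 24.2 and 22.6 FPKM in PRL-295, 43.7, 22.7 and 26.2 FPKM in CDDO-Me and 31.4, 28.6 and 30.8 FPKM in DMSO. Every PRL-295 library lay below every DMSO library, and CDDO-Me 1 stood far above the other CDDO-Me libraries. PRL-295 against DMSO gave −0.36 (95% interval −0.83 to 0.11, adjusted p = 0.530), or −0.09 with the GC and length correction. CDDO-Me against DMSO gave 0.03 (adjusted p = 0.957), but −0.32 (adjusted p = 0.130) without CDDO-Me 1 and 0.48 (adjusted p = 0.243) with the GC and length correction. The gene's GC content of 69.7% was at percentile 99.6 of tested genes.

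The JUN family summed to 109 ± 8.34 FPKM in PRL-295, 122 ± 13 FPKM in CDDO-Me and 119 ± 6.23 FPKM in DMSO (SD, n = 3 each). JUNB took 64.5 ± 1.06% of it in PRL-295, 60.8 ± 4.52% in CDDO-Me and 65.2 ± 0.761% in DMSO. JUN took 14.2 ± 0.386% in PRL-295, 14.4 ± 1.96% in CDDO-Me and 9.34 ± 1.04% in DMSO. In each of the 9 libraries JUN was the least abundant of the 3 genes per length, and JUNB the most abundant. As shares of raw counts, JUN averaged more than JUND in PRL-295 (24.2% against 19.2%) and CDDO-Me (24.5% against 22.4%). In DMSO it averaged less (16.6% against 23.8%).

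EGR1, a zinc finger activator induced by serum response factor within minutes of a stimulus, is at chr5:138465490-138469315 on the plus strand (ENSG00000120738). It measured 8.62, 9.34 and 9.93 FPKM in PRL-295, 8.47, 8.10 and 7.58 FPKM in CDDO-Me and 9.72, 8.30 and 9.01 FPKM in DMSO. The PRL-295 libraries lay above the CDDO-Me libraries, and DMSO overlapped both. No difference passed: 0.08 in PRL-295 against DMSO (95% interval −0.24 to 0.40), −0.16 in CDDO-Me against DMSO (−0.48 to 0.16) and 0.24 in PRL-295 against CDDO-Me (−0.08 to 0.56). Corrected for GC and length these were 0.15, 0.13 and 0.02, and none was called. Its promoter is shown because the CArG box, the element bound by serum response factor, was found in EGR1 alone of the 8 windows. The box was in 1.14% of all promoters, and bases more than 250 before the start were not searched. The EGR1 window has 2 matches, in capitals, at −105 to −96 and −83 to −74 in the 250 bases at chr5:138465229-138465478.
EGR1: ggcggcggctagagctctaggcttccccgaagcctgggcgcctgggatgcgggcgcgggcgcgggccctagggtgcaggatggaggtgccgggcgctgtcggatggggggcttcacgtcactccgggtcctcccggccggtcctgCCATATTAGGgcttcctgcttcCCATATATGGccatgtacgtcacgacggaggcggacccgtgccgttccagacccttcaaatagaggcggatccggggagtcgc
Both matches lie in the part of the window nearer the start. The pattern of the box is its own reverse complement, so each match holds on both strands.

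IER3, a short-lived stress protein that affects survival and ERK signalling, was the second most abundant of the 10 genes (ENSG00000137331, chr6:30743199-30744554, minus strand). Its CPM were 146, 182 and 155 in PRL-295, 136, 136 and 161 in CDDO-Me and 112, 104 and 122 in DMSO. All 6 compound libraries were above the DMSO libraries, as for JUN, and the compound groups overlapped. PRL-295 against DMSO gave a log2 fold change of 0.51 (95% interval 0.24 to 0.79), which was not called (adjusted p = 0.107). CDDO-Me against DMSO gave 0.35 (95% interval 0.08 to 0.63, adjusted p = 0.0992). The PRL-295 value was called in 6 of 20 alternatives, among them DESeq2 (adjusted p = 0.0146) and the fit without CDDO-Me 1 (0.52, adjusted p = 0.0401). With the GC and length correction both were called, at 0.60 (adjusted p = 0.0141) for PRL-295 and 0.72 (adjusted p = 0.00127) for CDDO-Me.

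DUSP1 encodes a nuclear phosphatase that switches off MAP kinases (ENSG00000120129, chr5:172768090-172771195, minus strand). It gave 2.01, 2.71 and 3.64 FPKM in PRL-295, 3.51, 2.79 and 2.12 FPKM in CDDO-Me and 3.49, 4.48 and 2.70 FPKM in DMSO. The groups overlapped throughout. The log2 fold changes were −0.33 in PRL-295 against DMSO (95% interval −1.03 to 0.38) and −0.35 in CDDO-Me against DMSO (−1.05 to 0.35). Corrected for GC and length they were −0.30 (adjusted p = 0.903) and −0.0074 (adjusted p = 0.993).

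Groups that did not overlap in CPM were found for 4 of 10 genes in PRL-295 against DMSO (FOSL1, JUN, JUND and IER3), against 27.2% of tested genes. For CDDO-Me against DMSO they were found for 2 (JUN and IER3), against 31.8%. In PRL-295 against CDDO-Me they were found for 4 (FOSL1, FOSL2, FOSB and EGR1), against 24.6%. None of these counts stands far from its background.

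By mean FPKM over the 9 libraries, FOSL1 ranked 166 of 16239 tested genes (196 FPKM), IER3 365 (103 FPKM) and JUNB 555 (73.7 FPKM). JUND (28.1 FPKM), FOSL2 (15.3 FPKM), JUN (14.6 FPKM) and EGR1 (8.78 FPKM) followed. DUSP1 (3.05 FPKM), FOS (0.677 FPKM) and FOSB (0.493 FPKM) were the lowest, and FOSB ranked 12963. Of the FOS and JUN genes, the level per length thus spanned from FOSL1 at the top to FOS and FOSB, both under 1 FPKM on average.

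AU-rich elements in the 3′ UTR speed the decay of many immediate early RNAs, so the sites found are shown. In the longest coding transcript of GENCODE 29, the nonamer TTATTTATT was found in FOS once, FOSL2 once and DUSP1 2 times, and in 9.11% of 12958 tested coding genes. It was found in none of the other 7 members. One site of each is printed on the gene's strand with the nonamer in capitals, from chr14:75282060-75282089 (FOS), chr2:28416355-28416384 (FOSL2) and chr5:172768642-172768671 (DUSP1) of GRCh38.
FOS: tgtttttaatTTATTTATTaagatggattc
FOSL2: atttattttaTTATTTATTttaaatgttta
DUSP1: gggctggtccTTATTTATTtaacttcaccc
Counted as the shorter ATTTA per kilobase of 3′ UTR, IER3 (6.64), FOS (6.20), DUSP1 (5.95) and JUNB (4.0) were above the other members, at percentiles 96.3, 95.3, 94.7 and 85.3 of tested coding genes. FOSL1 had 1.5, beside a median of 1.58 over all of them. For JUNB this density comes from 2 ATTTA in 500 bases. IER3 and JUNB had a high density and a high level, and FOS and DUSP1 a high density and a low level. RNA decay was not measured, and its part in these levels was not tested.

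Across the 9 libraries the most alike pair of members was JUN and IER3 (Pearson r = 0.853 of log2 CPM), then FOSL1 and IER3 (r = 0.798). The least alike was FOSL2 and FOSB (r = −0.683). These are descriptions over libraries that share the 3 groups, their depth and their GC trends. Over the 8839 genes averaging 10 CPM or more, those most like FOSL1 were HBEGF, a ligand of the EGF receptor (r = 0.952), CHST11, a chondroitin sulfotransferase (r = 0.951), and NEDD4L, a ubiquitin ligase (r = 0.932). After removal of the group means their r was 0.769, 0.460 and 0.0829. For JUN they were HS3ST1, a heparan sulfate sulfotransferase (r = 0.971), ODC1, the first enzyme of polyamine synthesis (r = 0.970), and ZBED2, a zinc finger factor (r = 0.967). Within groups these kept r of 0.828, 0.786 and 0.769, and 66 genes had an r above 0.9 with JUN, against 11 with FOSL1.

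The other genes of the pathway were taken as 5 lists of 81 genes, of which 74 were tested. The lists were chosen with earlier results of these data known, and no list was tested as a set. Of the AP-1 relatives, 8 of 10 were tested. In each compound 1 rose against DMSO, where 0.462% (PRL-295) and 4.65% (CDDO-Me) of all tested genes did. It was MAFG, a small MAF protein and partner of NRF2, which averaged 150 ± 15.8 CPM in PRL-295, 154 ± 12.7 CPM in CDDO-Me and 86.5 ± 7.42 CPM in DMSO (SD, n = 3 each). The log2 fold change was 0.80 for PRL-295 (adjusted p = 0.0159) and 0.83 for CDDO-Me (adjusted p = 0.00254). The CDDO-Me call held in every alternative. The PRL-295 call ended without PRL-295 2 (adjusted p = 0.0508), PRL-295 3 (0.0985), DMSO 2 (0.119) or DMSO 3 (0.0706). The median of the list was 0.19 in PRL-295 and 0.21 in CDDO-Me against DMSO, and edgeR, DESeq2 and limma called 0 of its genes between the compounds, where 0 had an unadjusted p under 0.05.

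Of 15 other immediate early genes tested, edgeR, DESeq2 and limma called 0 in PRL-295 against DMSO (median −0.08), where 3 had an unadjusted p under 0.05 in edgeR. The most abundant were MCL1, a survival protein (0.17, adjusted p = 0.592), and IER5, a stress response gene (−0.05, adjusted p = 0.906). With CDDO-Me 1 rose against DMSO (median 0.01), beside 4.65% of all tested genes. It was KLF6, a zinc finger factor, with 55.9 ± 2.22 CPM in PRL-295, 92.2 ± 13.6 CPM in CDDO-Me and 59.1 ± 2.66 CPM in DMSO (SD, n = 3 each). Its log2 fold change was 0.64 in CDDO-Me against DMSO (adjusted p = 0.0131) and −0.72 in PRL-295 against CDDO-Me (adjusted p = 0.0201). The first ended without DMSO 2 (adjusted p = 0.0653) or DMSO 3 (0.0569) and with the GC and length correction (0.0549). The second ended without PRL-295 1 (0.0679), PRL-295 2 (0.0777), PRL-295 3 (0.127) or DMSO 2 (0.0517), and with only the 6 libraries compared (0.112).

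Of 18 genes listed here as feedback inhibitors of the response, all tested, 1 was lower in PRL-295 than in DMSO (median 0.04), against 0.222% of all tested genes. In CDDO-Me 3 were higher and 1 lower than in DMSO (median 0.26), against 4.65% higher and 4.57% lower of all tested genes. That role was not checked for each listed gene, IER5L and PHLDA2 among them. The PRL-295 count of 1 became 0 without PRL-295 1, PRL-295 3, DMSO 2 or DMSO 3 and 2 without CDDO-Me 1 or CDDO-Me 2. The CDDO-Me count of 4 became 2 without CDDO-Me 2 or DMSO 2, and 7 with the GC and length correction. DUSP10, a phosphatase of JNK and p38, fell in both, to 87.9 ± 4.27 CPM in PRL-295 and 73.1 ± 3.56 CPM in CDDO-Me, against 144 ± 15.2 CPM in DMSO (SD, n = 3 each). The log2 fold change was −0.71 for PRL-295 (adjusted p = 0.0194) and −0.97 for CDDO-Me (adjusted p = 0.000736). The PRL-295 call ended without PRL-295 1 (adjusted p = 0.130), PRL-295 3 (0.174), DMSO 2 (0.124) or DMSO 3 (0.0905). DUSP4 and DUSP5, phosphatases of ERK, and ERRFI1, an inhibitor of the EGF receptor, rose in CDDO-Me. The log2 fold change of DUSP4 was 1.03 (adjusted p = 0.000887), a call that no alternative ended. For ERRFI1 it was 1.02 (adjusted p = 0.0148), and the adjusted p was 0.0610 without CDDO-Me 2, 0.0532 without DMSO 1 and 0.0512 without DMSO 2. For DUSP5 it was 1.02 (adjusted p = 0.0252), and the adjusted p was 0.0546 without CDDO-Me 2, 0.111 without DMSO 2 and 0.0812 without DMSO 3. PRL-295 against DMSO gave 0.52 for DUSP4, 0.63 for ERRFI1 and 0.69 for DUSP5. The groups did not overlap, but none was called (adjusted p = 0.102, 0.231 and 0.239). Nor was any called in PRL-295 against CDDO-Me in the edgeR fit of all 9 libraries (adjusted p = 0.0720, 0.367 and 0.518).

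Of 15 upstream kinases and transcription factors that act with serum response factor, the edgeR fit of all 9 libraries and limma called 0 in PRL-295 against DMSO (median −0.13), and 2 had an unadjusted p under 0.05 in edgeR. DESeq2 called 1, as did edgeR with no filter, with only the 6 libraries compared, and without PRL-295 2, CDDO-Me 1 or CDDO-Me 2. The 2 most abundant were MAP2K2 (−0.31, adjusted p = 0.517) and MAP2K1 (0.12, adjusted p = 0.747), the kinases that activate ERK. In CDDO-Me 1 was higher and 1 lower than in DMSO (median 0.08), against 4.65% and 4.57% of all tested genes. The count of 2 became 4 without CDDO-Me 1 and 1 without DMSO 1. MAP2K4, which activates JNK, averaged 51.8 ± 7.84 CPM in PRL-295, 66.4 ± 7.12 CPM in CDDO-Me and 32.7 ± 1.20 CPM in DMSO (SD, n = 3 each). Its log2 fold change was 1.02 in CDDO-Me against DMSO (adjusted p = 0.00254) and 0.66 in PRL-295 against DMSO (adjusted p = 0.0809), where the groups did not overlap. PRL-295 against CDDO-Me gave −0.36 for MAP2K4 (adjusted p = 0.245). MKL1, a coactivator of serum response factor, averaged 37.0 ± 3.38 CPM in CDDO-Me and 61.7 ± 6.96 CPM in DMSO (−0.74, adjusted p = 0.0109). The MKL1 call ended without DMSO 1 (adjusted p = 0.0602).

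Of 18 tested keratinocyte genes known as AP-1 targets, 2 were higher and 1 lower in PRL-295 than in DMSO (median 0.08). Of all tested genes 0.462% were higher and 0.222% lower. The count of 3 became 0 without any 1 of the PRL-295 libraries or DMSO 1, 1 without CDDO-Me 3 or DMSO 2, 5 without CDDO-Me 2 and 7 without CDDO-Me 1. HBEGF, the gene most like FOSL1, averaged 67.6 ± 4.83 CPM in PRL-295 and 37.4 ± 5.39 CPM in DMSO (0.85, adjusted p = 0.0264). PLAU, the urokinase protease of cell migration, averaged 376 ± 63.3 CPM in PRL-295 and 216 ± 41.5 CPM in DMSO (0.80, adjusted p = 0.0493). IVL, a precursor of the cornified envelope, averaged 15.7 ± 1.86 CPM in PRL-295 and 42.0 ± 14.5 CPM in DMSO (−1.42, adjusted p = 0.0312). Each of the 3 calls ended when some single libraries were left out. Without 1 library at a time, the adjusted p of HBEGF reached 0.0782 (PRL-295 1), 0.0819 (PRL-295 2), 0.140 (PRL-295 3), 0.172 (DMSO 1) and 0.165 (DMSO 2). That of PLAU reached 0.0782 (PRL-295 1), 0.132 (PRL-295 2), 0.157 (PRL-295 3), 0.0923 (CDDO-Me 3), 0.275 (DMSO 1) and 0.259 (DMSO 2). That of IVL reached 0.145 (PRL-295 1), 0.105 (PRL-295 2), 0.10 (PRL-295 3), 0.0638 (CDDO-Me 3), 0.126 (DMSO 1) and 0.0706 (DMSO 3). PLAU also lost its call under other scalings (0.0519 and 0.0524), a filter of 1 CPM (0.0581) and limma (0.0787 and 0.0843), and IVL under limma (0.0555 and 0.0533).

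In CDDO-Me against DMSO 7 of these 18 targets rose and 2 fell (median 0.51), against 4.65% and 4.57% of all tested genes. The list was chosen with earlier results of these data known, so the count is a description and not a test of AP-1 targets. The count of 9 became 3 without CDDO-Me 2, 5 without CDDO-Me 3, 4 without DMSO 1 and 5 without DMSO 2. The 2 that fell, named after their values were seen, were IVL (−1.01, adjusted p = 0.0294) and HMGA1, a chromatin protein (−0.62, adjusted p = 0.0245), and neither was called with the GC and length correction (adjusted p = 0.172 and 0.450). The adjusted p of IVL was 0.0903 without CDDO-Me 2, 0.0772 without CDDO-Me 3, 0.119 without DMSO 1 and 0.058 without DMSO 3. That of HMGA1 was 0.0795 without CDDO-Me 2, 0.0802 without CDDO-Me 3, 0.0954 without DMSO 1 and 0.10 without DMSO 2. The collagenase MMP1 averaged 18.5 ± 5.32 CPM in CDDO-Me and 5.44 ± 1.05 CPM in DMSO (1.77, adjusted p = 0.00429). The stromelysin MMP10 averaged 12.0 ± 0.824 CPM in CDDO-Me and 4.66 ± 1.46 CPM in DMSO (1.37, adjusted p = 0.0124). Both held in every alternative. CSTA, a protease inhibitor of the cornified envelope, averaged 55.1 ± 34.5 CPM in CDDO-Me and 12.2 ± 5.19 CPM in DMSO (2.18, adjusted p = 0.0189). In PRL-295 CSTA averaged 53.6 ± 11.8 CPM, and its rise of 2.14 against DMSO was not called (adjusted p = 0.0809). PRL-295 against CDDO-Me gave −0.04 for CSTA (adjusted p = 0.979). VIM, the intermediate filament vimentin, averaged 2.61 ± 0.406 CPM in CDDO-Me and 0.379 ± 0.285 CPM in DMSO (2.76, adjusted p = 0.0425). The CSTA call ended without CDDO-Me 2 (adjusted p = 0.0618), DMSO 1 (0.0914) or DMSO 2 (0.0969). The VIM call ended without PRL-295 1 (0.0547), PRL-295 3 (0.076), CDDO-Me 2 (0.106), CDDO-Me 3 (0.104), DMSO 1 (0.138) or DMSO 3 (0.135), and with no filter (0.0537), only the 6 libraries compared (0.0612) or the GC and length correction (0.0557).

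In PRL-295 against CDDO-Me 1 of these targets was higher and 3 lower (median −0.32), against 0.905% and 0.684% of all tested genes. The 4 called targets are named here after their values were seen. The count of 4 became 0 without PRL-295 3 and 2 without PRL-295 1, PRL-295 2, CDDO-Me 2, CDDO-Me 3, DMSO 1 or DMSO 3. TGM1, the transglutaminase of the cornified envelope, averaged 4.66 ± 1.02 CPM in PRL-295 and 15.5 ± 1.58 CPM in CDDO-Me (−1.73, adjusted p = 0.00747, or 0.056 without PRL-295 3). MMP1 gave −1.78 (adjusted p = 0.0112, or 0.058 without PRL-295 3). MMP10 gave −1.31 (adjusted p = 0.0384), and this call ended in 8 of the 9 fits that left a library out, all but that without DMSO 2, with adjusted p of 0.0523 to 0.211. HMGA1, the higher one, gave 0.71 (adjusted p = 0.0340), also lost in 8 of these 9 fits, all but that without CDDO-Me 1, at 0.054 to 0.122. With only the 6 libraries compared, the adjusted p was 0.0596 for MMP1, 0.0596 for MMP10 and 0.156 for HMGA1, and the GC and length correction gave HMGA1 0.139.

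**Figure D4:**
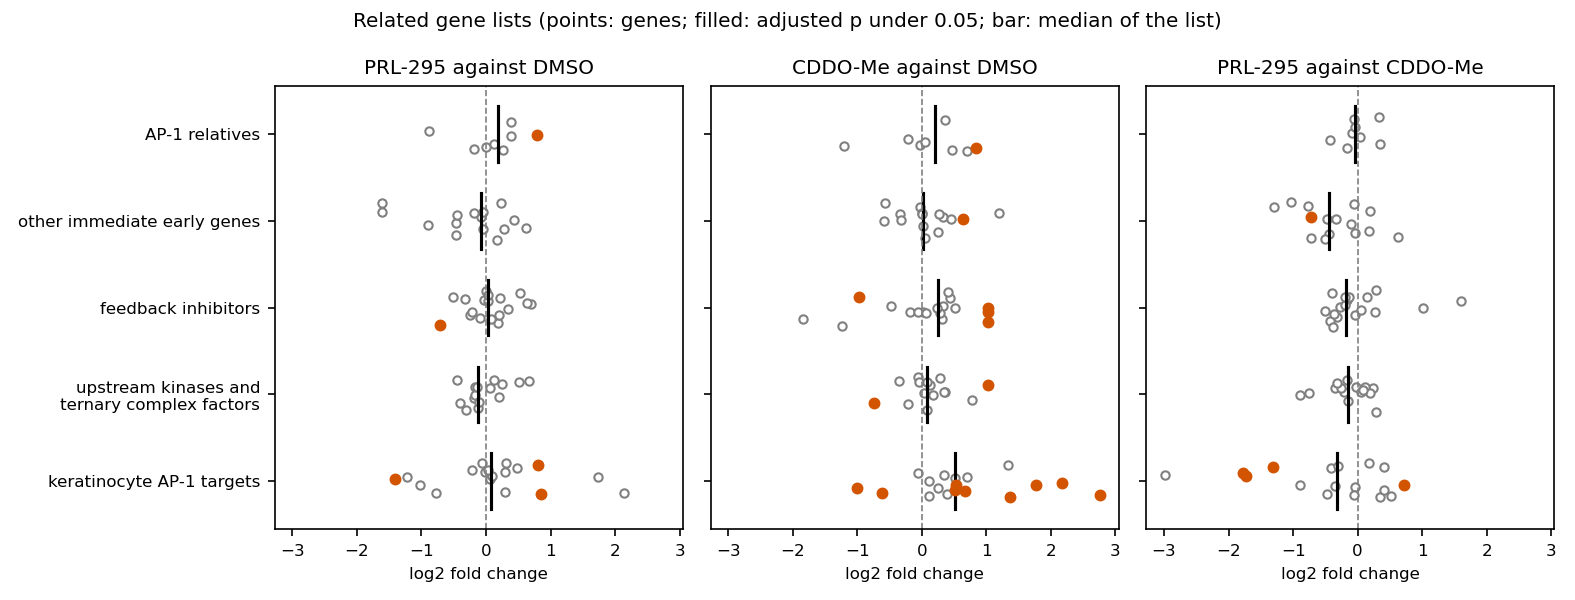
log2 fold change (x axis) of the tested genes of the 5 pathway lists in the 3 comparisons, each point a gene, filled where the adjusted p was under 0.05, with a bar at the list median. The keratinocyte AP-1 targets have 9 filled points in CDDO-Me against DMSO and 3 in PRL-295 against DMSO.

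**Figure D5:**
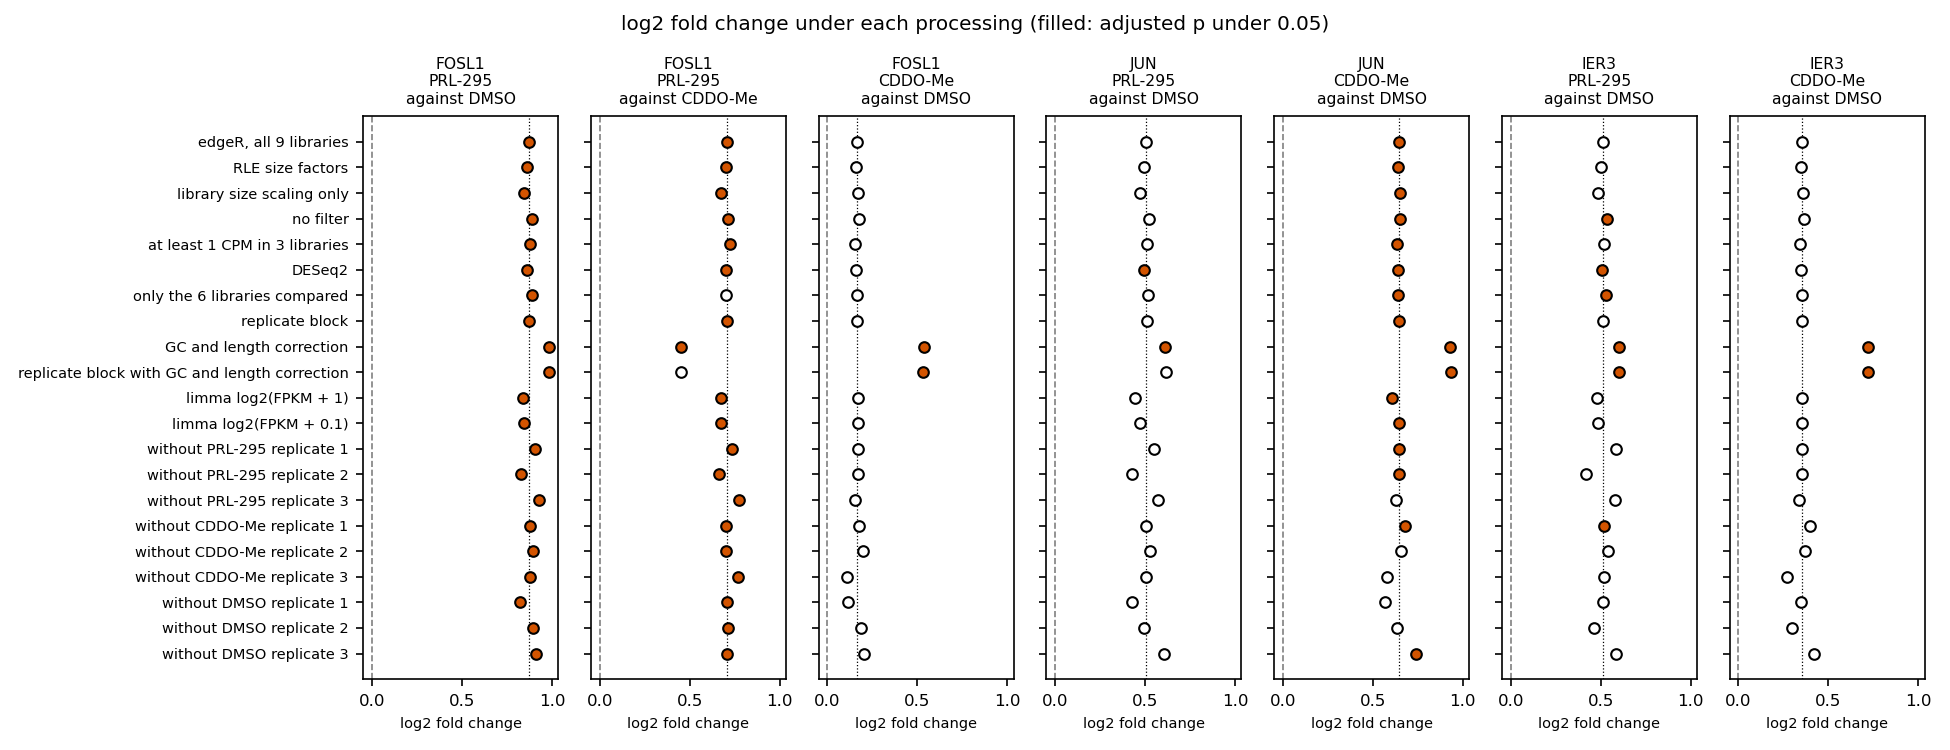
log2 fold change (x axis) of FOSL1, JUN and IER3 in the fit as reported (top row) and in each of 20 alternative analyses, filled where the adjusted p was under 0.05; the dotted line is the reported value. FOSL1 in PRL-295 against DMSO is filled in every row, and the GC and length correction brings IER3 in CDDO-Me against DMSO to 0.72.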

How the data were processed

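Per the labels' protocols and the submitters' processing notes, the aligner was STAR 2.5, the build hg38 and the gene counter HTSeq 0.6.1, on paired-end reads. The deposited counts are the authors' raw reads per gene. The deposited FPKM, made by the authors, equalled count over gene length and library total for 100% of values within 0.1%. Annotation release and strand setting are not given in the sources used here, but all 58676 gene IDs are in GENCODE 29 and the 10 members have the same coordinates there. Floors of 3 counts cover counting error only, as no molecular identifiers were used.

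Counts were fitted over all 9 libraries with edgeR 4.0.16 (R 4.3.3): filterByExpr, TMM scaling and the quasi-likelihood test, Benjamini-Hochberg adjusted over 16239 genes at 0.05. Levels are CPM or deposited FPKM, as mean ± SD, and intervals are 95% intervals of the log2 fold change. The 10 members and the lists were chosen with earlier results of these data known. All members are named. From each list up to 4 called genes with the largest change were named for each comparison with DMSO, or the 2 most abundant where none was called, and for each called member the 3 genes with the highest correlation. Scripts were tested on simulated data. The GC and length correction fits a smooth trend of each library's deviation from the gene means on both and enters it as an offset. No pairing by replicate number was seen: correlations of deviations were −0.218 to 0.107 for same-numbered libraries and −0.128 to 0.274 for differently numbered ones. The deviations also hold the GC trends, so these values cannot exclude a pairing. The alternatives were other scalings, filters of none and 1 CPM in 3 libraries, DESeq2 1.42.0, only the 6 libraries compared, the replicate block, limma 3.58.1 on log2(FPKM + 1) or log2(FPKM + 0.1), and each library left out. Promoter letters come from RefSeq (GRCh38.p14).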

Additional observations from a re-analysis of the deposited data

How the results depend on the processing

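Depth limits FOS and FOSB most, at 31 to 112 counts a library. Library CDDO-Me 1, the differing GC trends and the single dose limit all members; the cause of each shift below was not tested. The call of FOSL1 in PRL-295 against DMSO held under all 20 alternatives.

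The number of genes called in PRL-295 against DMSO, 111 as reported, was 825 with no filter, 603 with DESeq2, 650 with only the 6 libraries compared, 168 with the GC and length correction and 33 to 589 without single libraries. For CDDO-Me against DMSO the 1497 became 2509 with no filter, 2616 with DESeq2 and 400 to 2803 without single libraries. In PRL-295 against CDDO-Me the 258 became 1250 with no filter, 1054 with DESeq2, 45 with only the 6 libraries and 60 to 285 without single libraries. The F test's 922 became 2841 with no filter, 2614 with DESeq2 and 287 to 1919 without single libraries. Members called in PRL-295 against DMSO numbered 2 with no filter, 3 with DESeq2, 2 with only the 6 libraries, 3 with the GC and length correction and 1 to 2 without single libraries. CDDO-Me against DMSO had 3 with the correction and 0 to 1 without single libraries, and PRL-295 against CDDO-Me had 0 with only the 6 libraries, where FOSL1 had 0.70 (adjusted p = 0.0631). Pathway list genes called in PRL-295 against DMSO (5) numbered 12 with no filter, 11 with DESeq2, 10 with only the 6 libraries, 8 with the correction, 3 with limma at either pseudocount and 0 to 11 without single libraries. For CDDO-Me against DMSO (17) they numbered 9 to 22 without single libraries. In PRL-295 against CDDO-Me (5) they numbered 12 with no filter, 13 with DESeq2, 1 with only the 6 libraries, 9 with the correction and 0 to 4 without single libraries.

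The replicate numbers share no stated source, and the replicate block is given for completeness. With it 60 genes were called in PRL-295 against DMSO, 864 in CDDO-Me against DMSO, 156 in PRL-295 against CDDO-Me and 459 by the F test. Pathway list genes called were 2 in PRL-295 against DMSO and 3 in PRL-295 against CDDO-Me. With the block and the GC and length correction together 861 genes were called in CDDO-Me against DMSO, members called numbered 2 in PRL-295 against DMSO, 4 in CDDO-Me against DMSO (FOSL1, JUN, IER3 and FOSL2, the last at 0.48 with an adjusted p of 0.0422) and 0 in PRL-295 against CDDO-Me, list genes 8 in PRL-295 against DMSO and 8 in PRL-295 against CDDO-Me, and FOSL1 had 0.45 in PRL-295 against CDDO-Me (adjusted p = 0.0576).

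Log2 fold changes that turned sign were none of them called. With the GC and length correction, and with the block added, PRL-295 against DMSO gave 0.057 and 0.070 for FOSL2, 0.072 and 0.072 for JUNB and −0.042 and −0.037 for MCL1. CDDO-Me against DMSO gave 0.34 and 0.33 for JUNB and 0.13 and 0.12 for EGR1. PRL-295 against CDDO-Me gave −0.12 and −0.12 for IER3 and −0.30 and −0.24 for DUSP1. DUSP1 there also had −0.011 with library size scaling and −0.013 and −0.020 with limma. JUND in CDDO-Me against DMSO had −0.012 with the block and −0.029 and −0.031 with limma. Without single libraries FOSL2 ran from −0.20 to 0.038 and IER5 from −0.14 to 0.016 in PRL-295 against DMSO. Against DMSO, CDDO-Me kept JUN at 0.56 to 0.74, FOS ran from −0.0047 to 0.65 and JUND from −0.32 to 0.19. In PRL-295 against CDDO-Me JUNB ran from −0.12 to 0.032 and DUSP1 from −0.16 to 0.22.

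As shares of raw counts, not per length, FOSL1 made up 83.5% of the FOS family in PRL-295, 70.4% in CDDO-Me and 72.3% in DMSO, and JUN made up 24.2% of the JUN family in PRL-295, 24.5% in CDDO-Me and 16.6% in DMSO.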
